A study of Mus musculus with 2 samples.

Results

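Of the 2202 annotated mouse microRNA loci counted in small RNA libraries from the cerebral cortex, 1021 carried a symbol made of Gm and a number, and these loci together held 0.0385% ± 0.00109 (SD, n = 2) of the reads assigned to microRNA genes. The 1021 loci were found by their symbol alone, in the GENCODE M21 annotation of the mouse build GRCm38 (mm10); the rule uses no read count. They had 1020 distinct symbols, since Gm24022 stood under 2 gene identifiers. Another 1174 loci had a Mir symbol and 7 had another kind of symbol. The study holds 1 group, with 2 biological replicates and no treatment or other comparison. Both libraries hold RNA shorter than 30 nt. It came from left cerebral cortex of B6CASTF1/J females at 14 days of age; the strain is a first-generation hybrid of C57BL/6J and CAST/EiJ. The labels describe replicate 1 with wording for several females and replicate 2 as a single female, and both cite the same donor record, so the spread between them may be partly technical. Whole cortex mixes many cell types, and in such tissue fewer cells of a type and less RNA per cell cannot be told apart.

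A microRNA is a short RNA that guides Argonaute proteins to partly complementary messenger RNAs and lowers their output. It is cut from 1 arm of a hairpin, first by Drosha with its partner Dgcr8 and then by Dicer, and its seed, bases 2 to 8 from the 5′ end, contributes most to target pairing. A Gm symbol is the provisional name of a predicted mouse gene that has not been given a descriptive name, whereas a Mir symbol goes with an entry in the microRNA registry. Many predicted microRNA loci come from a search of the genome for sequences that resemble known hairpins. Such a search can return diverged or repeated copies, and the strand facing a known hairpin, because the reverse complement of a hairpin can also fold.

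The sequences below show the kinds of Gm locus that the counts separate. The first 3 are mature microRNAs from RefSeq (GRCm38.p6) that were found whole inside Gm loci: miR-935 in the most abundant Gm locus, and miR-680 and miR-3471, which of all whole mature sequences stood in the largest numbers of Gm loci. Capitals mark the seed.
mmu-miR-935: cCCAGUUAccgcuuccgcuaccgc
mmu-miR-680: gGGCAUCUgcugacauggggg
mmu-miR-3471: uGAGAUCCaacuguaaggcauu
The Gm23450 transcript of the annotation follows, with miR-935 in capitals.
Gm23450: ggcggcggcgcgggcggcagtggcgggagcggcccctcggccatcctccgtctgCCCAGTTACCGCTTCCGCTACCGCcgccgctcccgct
Gm25927 and Gm24083 show the opposite-strand kind. Their capitals are the reverse complements of the abundant microRNAs let-7e-5p and miR-191-5p, whose seeds are in capitals beneath them.
Gm25927: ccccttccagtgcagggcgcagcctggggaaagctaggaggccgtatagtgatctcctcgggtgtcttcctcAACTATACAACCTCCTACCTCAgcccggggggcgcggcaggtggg
mmu-let-7e-5p: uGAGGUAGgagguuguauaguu
Gm24083: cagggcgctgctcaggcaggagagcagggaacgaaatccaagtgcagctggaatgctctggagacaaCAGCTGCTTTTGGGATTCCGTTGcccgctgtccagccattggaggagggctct
mmu-miR-191-5p: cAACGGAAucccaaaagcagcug
Gm23935 and Gm23388 belong to a family of 6 near-identical short loci. Capitals mark a stretch of 26 nt that is the same in both.
Gm23935: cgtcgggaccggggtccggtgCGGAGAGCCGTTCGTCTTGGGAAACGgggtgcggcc
Gm23388: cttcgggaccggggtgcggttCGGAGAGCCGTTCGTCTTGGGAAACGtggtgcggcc

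The libraries held 2740332 and 3207941 reads assigned to microRNA genes on the RNA strand, which were 35.4% and 33.3% of all reads. A floor of 3 reads, the limit that a count of 0 allows at 95% confidence, corresponded to 1.09 and 0.935 CPM, the counts per 1e+06 of these reads. The labels state no molecular identifiers, so this floor and every interval below cover counting error only. The labelled tissue was checked with microRNAs of known cell types. Of the 12 neuronal loci 8 had at least 10 reads in both libraries and none was at 0, and they summed to 33386 and 42518 CPM. The 3 oligodendrocyte loci summed to 4275 and 1477 CPM, 4 of 5 muscle loci were at 0 and the fifth was at 28.8 and 31.2 CPM, and the liver locus Mir122 was at 60.9 and 43.0 CPM. The muscle list holds the copied loci Mir1a-1 and Mir1a-2, and Mir133a-1 and Mir133a-2. Reads that match several places in the genome are not in these counts, so a 0 at such a locus says little about the tissue. The 2 libraries differed in the oligodendrocyte sum, and its part in any difference of a Gm locus between them was not tested.

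Few Gm loci had any read. At least 1 read fell on 42 Gm loci in replicate 1 and on 35 in replicate 2, which made 49 loci in either library (4.80%), beside 34.2% of all 2202 loci and 59.6% of the Mir loci. The other 972 Gm loci had no read. Reads in both libraries were seen for 28 of the 49, and in a single library for 21. The numbers were small at most of them. The higher of the 2 counts was 1 or 2 reads at 18 loci, 3 or 4 at 15, 5 to 9 at 7, 10 to 49 at 6, 50 to 99 at 1 and 100 or more at 2. Only 23 Gm loci had more than 3 reads in a library.

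Together the Gm loci held 1075 reads in replicate 1, or 0.0392% of the gene-assigned reads (exact binomial 95% interval 0.0369 to 0.0416%). In replicate 2 they held 1209 reads, or 0.0377% (0.0356 to 0.0399%). Each share lay within the interval of the other library. A few loci made up these totals: the 3 with the most reads had 86.9% and 85.8% of them. Gm23450 alone held 51.7% of the Gm reads in replicate 1 and 73.8% in replicate 2. The 6 short loci related to Gm23935 held 30.4% and 6.70%. The 21 Gm loci that lie on another annotated small RNA on the same strand held 6.51% and 10.2%. All the other 993 Gm loci together had 122 and 113 reads, and none of them had more than 18 in a library.

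At least 10 reads in both libraries, taken as detected, were found at 6 of the 1021 Gm loci (0.588%), beside 17.7% of all loci and 380 of 1174 Mir loci (32.4%). By mean CPM the 6 ranked between 171 and 395 among all loci.

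Gm23450 was the most abundant. It had 556 reads in replicate 1 and 892 in replicate 2, a level of 240 ± 53.1 CPM (SD, n = 2), at rank 171. It lies at chr7:3415066-3415156 on the plus strand, wholly in a coding exon of Cacng8, which encodes an auxiliary subunit of AMPA-type glutamate receptors. RefSeq lists the same hairpin as the precursor of miR-935, so at this locus the provisional symbol stands for an entry of the microRNA registry. Its 91 nt are 79.1% G and C, and no 20-nt stretch of it was found in another microRNA locus.

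Gm23935 was the second by counted reads and the most unequal. It had 315 reads in replicate 1 and 49 in replicate 2, or 115 and 15.3 CPM, and its SD of 70.5 exceeded its mean of 65.1 CPM. The 57-nt locus lies at chr16:11144125-11144181 on the plus strand, with no host gene on that strand; on the opposite strand runs Zc3h7a, outside its exons. The same 57 nt stand at Gm24270 and Gm24245. Gm24270, on the minus strand of chr9:56223715-56223771 within an intron of Peak1, had 9 and 28 reads. Gm24245, on the plus strand of chr4:139338304-139338360, had 2 and 1. Gm24270 was thus higher in replicate 2, while Gm23935 was higher in replicate 1. A read lying wholly within the shared 57 nt matches all 3 places, and reads with several places in the genome are not in the gene counts. The counts at these 3 loci therefore leave out reads lying wholly inside them, and neither their levels nor their ranks can be taken from the counts. Further relatives share shorter stretches with Gm23935. Gm24187 shares 46 nt and had no reads, Gm23388 (in a Zfp791 intron) shares 26 nt and had 1 and 3, and Gm25911 shares 23 nt and had none.

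A group of 3 detected loci was near the threshold, and all 3 lie at least partly in exons. Gm24197 had 11 and 18 reads (4.81 ± 1.13 CPM, n = 2). It spans the start of an exon of Mast1, a microtubule-associated serine/threonine kinase, at chr8:84925525-84925633 on the minus strand. Most of it is intron and its last 17 nt (15.6%) are coding exon, shown in capitals in its sequence, where the intron ends in the AG of the splice acceptor.
Gm24197: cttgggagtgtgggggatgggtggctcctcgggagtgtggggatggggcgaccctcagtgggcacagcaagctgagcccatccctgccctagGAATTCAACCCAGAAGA
Gm23394 had 16 and 11 reads (4.63 ± 1.70 CPM). It lies in an untranslated exon of Ralgapa1, a subunit of a GTPase-activating complex for Ral, at chr12:55821063-55821153 on the minus strand. Gm26117 had 13 reads in each library (4.40 ± 0.489 CPM). It lies in an untranslated exon of Adgrb1, an adhesion G protein-coupled receptor of the brain, at chr15:74563821-74563915 on the plus strand, and is 91.6% G and C.

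The last detected locus, Gm49347, ranked 270, had 63 and 96 reads, at 26.5 ± 4.90 CPM (SD, n = 2). It lies on the plus strand of chromosome 18, at 35557132 to 35557242, in an intron of Gm28285 and 2.50 kb from Mir1949. The locus overlaps Snora74a, an H/ACA small nucleolar RNA of the class that guides pseudouridine formation in ribosomal RNA. The counts do not tell which of the overlapping annotations a read came from.

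Several Gm loci fell just short of the threshold. Gm24270 was described above. Gm27920, in a coding exon of the deubiquitinase gene Usp15, had 5 and 9 reads. Gm47277 had 3 and 11 reads. It overlaps the small nucleolar RNA Gm24698 in an intron of Champ1, at chr8:13876091-13876184. Gm47295 had 2 and 12 reads. It overlaps Rn7s1, a copy of the RNA of the signal recognition particle, at chr12:69159518-69159596. All of its 79 nt also stand in Gm47299, which had no read. A read lying wholly inside Gm47295 therefore has several places and is not in the counts. The levels of Gm47295 and Gm47299 cannot be taken from the counts. Gm24270, Gm47277 and Gm47295 reached 10 reads in replicate 2 only.

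**Figure D1:**
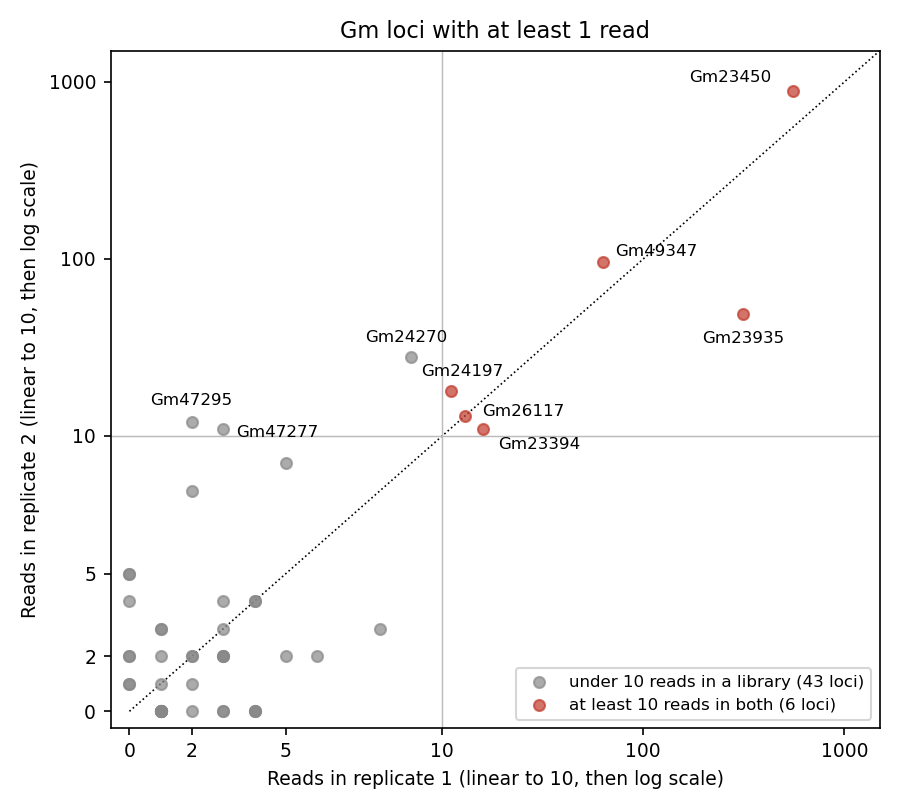
Reads of each Gm locus in replicate 1 (x axis) and replicate 2 (y axis) for the 49 loci with a read, on axes that are linear to 10 reads and logarithmic above; grey lines stand at 10 reads, the dotted line marks equal counts, and darker points are loci that coincide. The 6 detected loci are red, Gm23450 lies highest at 556 and 892 reads, and Gm23935 lies far below the dotted line at 315 and 49.

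The difference between the libraries was tested at every detected locus with a two-sided exact binomial test on the read counts, with library sizes scaled by the trimmed mean of M-values (edgeR's TMM) and Benjamini-Hochberg adjustment over 389 loci. This compares these 2 libraries only. Of the 6 Gm loci, 1 was higher in replicate 2 and 1 lower, beside 28.8% of all loci higher and 29.6% lower, or 58.4% in all. The share among the Gm loci rests on 6 loci and nothing is read from it. Gm23450 was higher in replicate 2 by 0.28 on the log2 scale (95% interval 0.13 to 0.44, adjusted p = 5.94e-04 by the exact test). Gm23935 was lower in replicate 2, at a log2 ratio of -3.08 (95% interval -3.55 to -2.65, adjusted p = 1.65e-65 by the exact test), the second largest absolute log2 ratio among the 389 loci. The counts of Gm23935 leave out reads lying wholly inside it, because its 57 nt also stand at Gm24270 and Gm24245. Its ratio and the rank of that ratio therefore describe the counted reads only. Gm24270, with the same 57 nt, had 9 and 28 reads. The log2 ratios over all 389 had a median of -0.0098 and an SD of 0.70. The other 4 Gm loci did not pass the test. Their log2 ratios and 95% intervals were 0.21 (-0.27 to 0.69) for Gm49347, 0.31 (-0.85 to 1.54) for Gm24197, -0.94 (-2.19 to 0.26) for Gm23394 and -0.40 (-1.63 to 0.83) for Gm26117. For the last 3 the intervals are wide enough to hold a change of more than 1 on the log2 scale.

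Gm loci opposite a Mir locus had no reads of their own. Each of 9 Gm loci wholly contained a Mir locus on the opposite strand, which covered between 54.5% and 98.8% of the Gm locus. All 9 had 0 reads on their own strand in both libraries, and they are among the 972 of 1021 Gm loci with no read. On the strand facing them they were listed with exactly the reads of their Mir partner, in 9 of 9 pairs. Since each Mir locus lies inside its Gm locus, its reads are listed at both, and the match follows largely from the coordinates.

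The partners include some of the most abundant microRNAs of the cortex. Mirlet7e, inside Gm25927 (chr17:17830343-17830459, minus strand), had 54784 and 75363 reads. Mir191, inside Gm24083 (chr9:108568295-108568414, minus strand), had 27622 and 34033. Mir378a, inside Gm25301, had 11169 and 15267. A count of 0 opposite Mirlet7e allows Gm25927 up to 0.00548% of the Mirlet7e reads in replicate 1 and 0.00398% in replicate 2.

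A group of 4 pairs lies on chromosome 12 in the imprinted Dlk1-Dio3 region, a large cluster of microRNAs expressed in brain. There Gm24321 (chr12:109743158-109743237) faces Mir409, which had 11218 and 21207 reads. Gm25252 (chr12:109723756-109723875) faces Mir376a, with 3068 and 4604. Gm25750 (chr12:109711779-109711890) faces Mir380, with 513 and 1458, and Gm44322 (chr12:109728108-109728222) faces Mir539, with 367 and 727. All 4 Gm loci are on the minus strand and their partners on the plus strand. The reverse complement of miR-409-3p is in capitals in Gm24321, and in miR-409-3p the capitals are its seed.
Gm24321: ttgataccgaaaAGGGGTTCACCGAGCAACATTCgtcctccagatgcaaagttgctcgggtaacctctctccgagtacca
mmu-miR-409-3p: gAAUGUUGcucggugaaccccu

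The other pairs had lower counts. Gm24111 (chr13:48537825-48537921, plus strand) faces Mirlet7f-1, with 450 and 439 reads. Gm25641 (chr3:88215589-88215696, minus strand) faces Mir9-1, a locus of the neural microRNA miR-9, with 50 and 85. RefSeq gives Gm25641 mature products of its own, miR-9b-5p and miR-9b-3p, and 21 bases in a row of miR-9b-3p are the reverse complement of miR-9-5p. In Gm25641 the capitals are the reverse complement of miR-9-5p, and in the mature sequences they are seeds.
Gm25641: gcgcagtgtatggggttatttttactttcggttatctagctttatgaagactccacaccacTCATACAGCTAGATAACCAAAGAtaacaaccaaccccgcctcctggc
mmu-miR-9-5p: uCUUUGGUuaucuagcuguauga
mmu-miR-9b-3p: aUACAGCUagauaaccaaaga
With so few reads at Mir9-1, the floor opposite it is wide. The floor of 3 reads at Gm25641 equals 6% of the Mir9-1 count in replicate 1 and 3.53% in replicate 2. Mature miR-9 is also made at 2 other loci, and Gm25641 shares a stretch with 2 microRNA loci elsewhere. Reads that match several places are not in these counts, so the floor covers only reads that match Gm25641 alone.

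The position of Gm25301 is chromosome 18, 61397813 to 61397925, on the plus strand. The 9 pairs bear on the deposited column that ignores strand, where a read over 2 genes is assigned to neither. There both members of all 9 pairs were listed at 0, although the Mir loci held 109241 and 153183 reads on their own strand. These were 3.99% and 4.78% of the gene-assigned reads, and 57.4% and 70.6% of the number set aside as ambiguous in that column. In the whole annotation 64 microRNA loci face another one. The 23 pairs made of Mir loci alone had reads on both strands in 9, and the 9 pairs with a Gm locus in 0. Only 4.80% of all Gm loci had a read, and 3 of the 9 Gm loci share a stretch with a microRNA locus elsewhere. Nothing is therefore read from the 0.

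**Figure D2:**
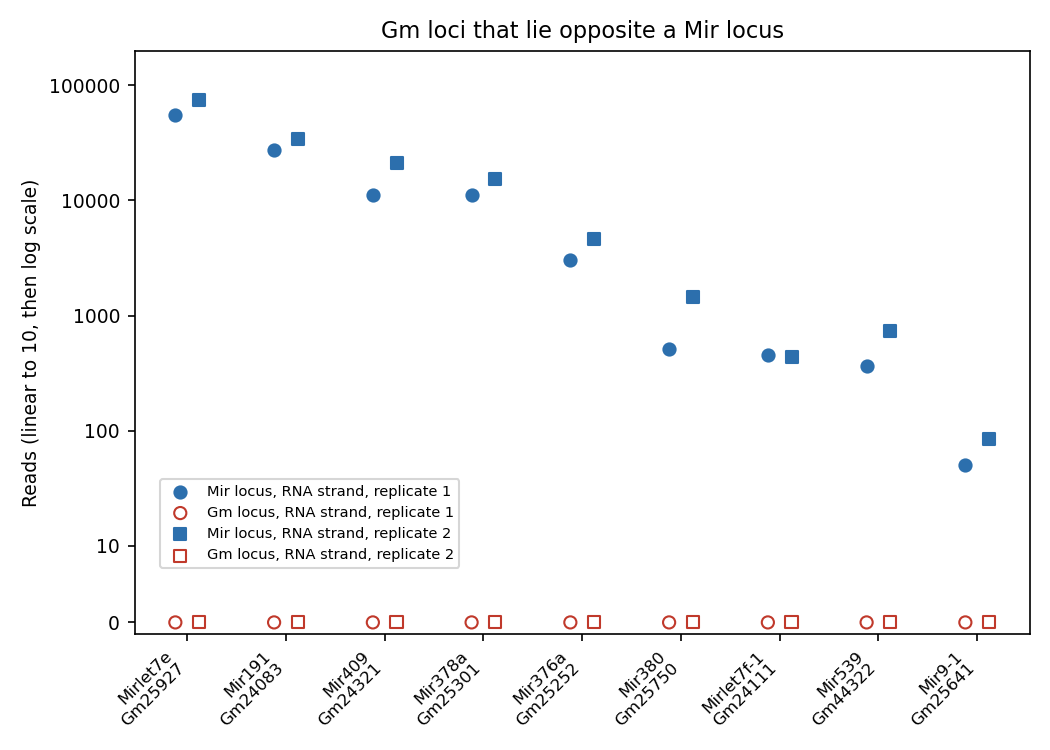
Reads on its own strand for each Mir locus (blue, filled) and for the Gm locus that contains it on the opposite strand (red, open), in replicate 1 (circles) and replicate 2 (squares); the y axis is linear to 10 reads and logarithmic above. The Mir loci run from 50 to 75363 reads, and all 9 Gm loci are at 0 in both libraries.

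Most Gm loci share sequence with other microRNA loci. An identical stretch of at least 20 nt in either orientation, about the length of a mature microRNA, was shared with a microRNA locus elsewhere by 824 of 1021 Gm loci (80.7%) and by 260 of 1174 Mir loci (22.1%). A read inside such a stretch has several places in the genome, and reads with several places were not assigned to genes. From anywhere in the genome, these were 40.6% and 37.9% of all reads, and how many lay in such stretches is not known. A low count at a shared locus therefore does not show that its RNA was scarce. Of the shared Gm loci 20 had reads (2.43%), and of the 197 without a shared stretch 29 had reads (14.7%). Detected were 1 of the shared Gm loci and 5 of those without (2.54%). Among the 914 Mir loci without a shared stretch, 586 had reads (64.1%) and 303 were detected (33.2%). Copies outside the annotated microRNA loci were not searched, and the part of unassigned reads in the low Gm counts was not tested.

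**Figure D3:**
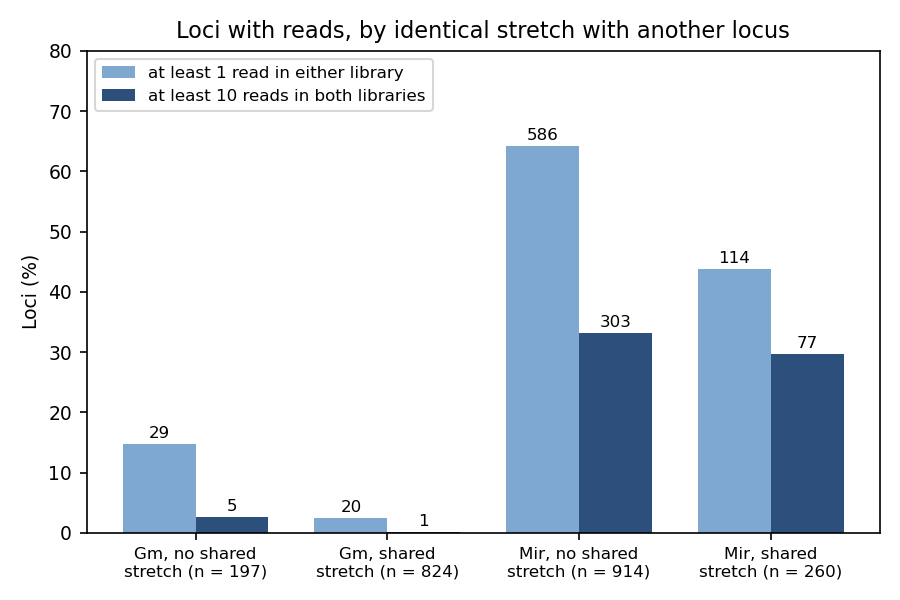
Percent of loci with at least 1 read in either library (light bars) and with at least 10 reads in both (dark bars), for Gm and Mir loci with and without an identical stretch of 20 nt in another microRNA locus; numbers on the bars are loci. Among loci without a shared stretch, 14.7% of the Gm and 64.1% of the Mir loci had a read.

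Linked through shared stretches, the 824 loci fell into 66 families, and the 6 largest held 520 Gm loci (50.9% of all Gm loci) with only 2 and 5 reads in all. The largest joins 191 Gm loci with 78 Mir loci, among them the Mir466, Mir467, Mir669 and Mir297 series. Its Gm members had 1 and 5 reads, from Gm44302 and Gm22072, and its Mir members 5020 and 5784. The next joins 99 Gm loci with the 3 loci of miR-680, and neither kind had a read. A family of 92 Gm loci with 9 Mir loci, among them Mir3470b and Mir1195, had 1 and 0 reads on its Gm members and 19 and 9 on its Mir members. The 56 Gm loci joined with Mir3471-1 and Mir3471-2 had none, as had 49 Gm loci joined with no Mir locus. The 33 joined with Mir3473 and its relatives had none either, beside 0 and 4 reads on the Mir members.

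The same repetition showed in the mature sequences. A whole RefSeq mature microRNA stood inside 238 Gm loci, with 38 different names: miR-680 in 83 loci, miR-3471 in 50, miR-3470b in 44, miR-690 in 15 and miR-3473b in 15. Of these 238 loci 7 had reads (2.94%), beside 4.80% of all Gm loci and 34.2% of all 2202 loci. A stretch shared with another microRNA locus was found in 230 of the 238 (96.6%). Reads inside such a stretch are not in the counts, so nothing is read from the low share. Of the 227 with no RefSeq entry of their own, 2 had reads. Gm24923, on chromosome 7, had 2 in each library and holds miR-344i. It shares 38 nt with Mir344i, which had none. Gm25960, on chromosome 2, had 1 read and holds miR-3470b. The capitals below mark miR-344i within Gm24923 and the seed within miR-344i.
Gm24923: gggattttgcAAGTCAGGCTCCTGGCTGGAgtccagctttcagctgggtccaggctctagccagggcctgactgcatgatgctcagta
mmu-miR-344i: aAGUCAGGcuccuggcugga

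A RefSeq microRNA entry of its own was found for 11 Gm loci. Beside 4.80% of all Gm loci, 34.2% of all loci and 59.6% of the Mir loci, 5 of the 11 had reads (45.5%). The share rests on 11 loci and nothing is read from it. Besides Gm23450, Gm38670 (miR-9769, in an exon of the small heat shock protein gene Hspb6) had 4 and 4 reads. Gm38671 (miR-9768, in an untranslated exon of Mcf2l) had 3 and 4. Gm22650 (miR-3552) had 0 and 5. It lies in an intron of Htr2c, the gene of a serotonin receptor, 2.75 kb from Mir764. Gm24572 (miR-3618), in an untranslated exon of Dgcr8 and 0.233 kb from Mir1306, had 1 and 0. Apart from Gm23450, the Gm loci with reads named for their family, mature sequence or RefSeq entry were singled out after their values had been seen.

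Host genes were read from the annotation. Of the 1021 Gm loci, 354 (34.7%) lay wholly within another gene on the same strand, 283 of them in protein-coding genes, beside 813 of 1174 Mir loci (69.2%). A locus was counted as exonic where any of its bases lay in an exon of the host, with coding sequence ranked first and untranslated sequence next. By this rule 253 were in introns, 39 in coding exons, 19 in untranslated exons and 43 in other exons, and 667 had no host. Of the exonic loci with reads, Gm24197 was 15.6% exonic, Gm23634 72.5% and Gm26220 85.4%, and the others were wholly exonic. Reads were seen at 19 of the 101 exonic Gm loci (18.8%), 13 of the 253 intronic ones (5.14%) and 17 of the 667 without a host (2.55%). The order was the same among Gm loci without a shared stretch: 15 of 39 exonic loci (38.5%), 7 of 46 intronic (15.2%) and 7 of 112 without a host (6.25%). Of the shared exonic loci 4 of 62 had reads (6.45%). Without a shared stretch, the median G and C content was 60.5% for exonic loci, 47.5% for intronic ones and 47.1% for those without a host. The part of base composition in the order was not tested. The counts do not separate a processed hairpin from a short fragment of the host transcript, and the part of such fragments was not tested.

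Base composition, folding and length are given as medians with no test. The median G and C content was 60.4% for the 49 Gm loci with reads, 68.5% for the 6 detected and 50.5% for the 972 without. The Mir loci had a median of 50.9%, those of them with reads 53.0% and those detected 51.7%. Of the 221 Gm loci with at least 60% G and C, 25 had reads (11.3%) and 5 were detected. Of the 800 below it, 24 had reads (3.00%) and 1 was detected, Gm49347. The predicted minimum free energy of folding per base had a median of -0.32 kcal/mol for all Gm loci, -0.39 for those with reads and -0.43 for those detected. It was -0.41 for all Mir loci, -0.43 for those with reads and -0.43 for those detected. Folding energy moves with G and C content, so these medians are not independent of each other. Gm loci were also longer, with a median of 104 nt beside 81 nt for the Mir loci.

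**Figure D4:**
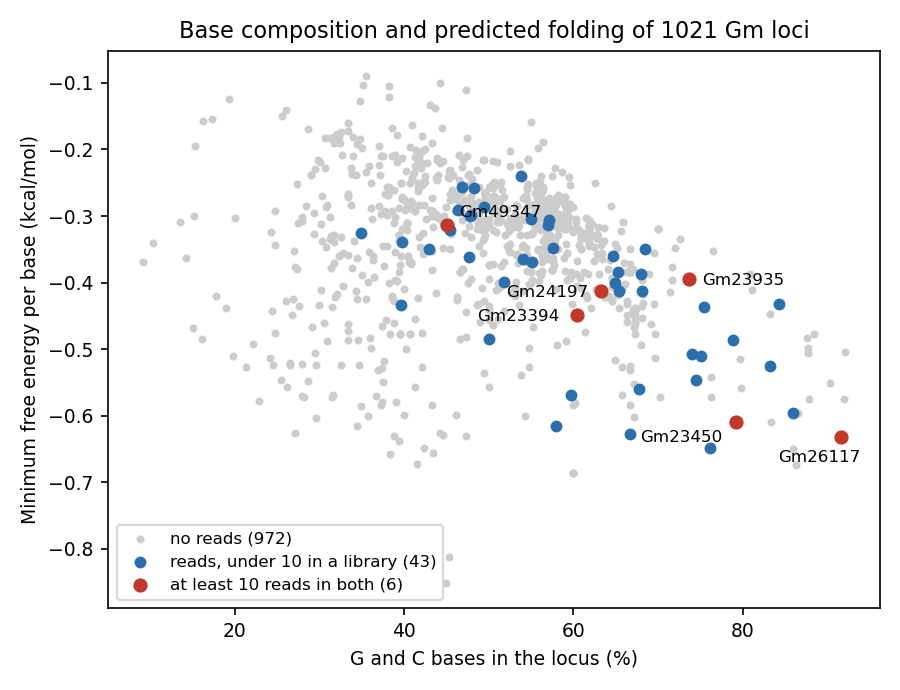
Percent of G and C bases (x axis) and predicted minimum free energy per base in kcal/mol (y axis) for the 1021 Gm loci, coloured by reads. Of the 6 detected loci (red, named), 5 have at least 60% G and C, and Gm49347 is the exception.

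Some Gm loci lay on other small RNAs or close to Mir loci. Beside 4.80% of all Gm loci and 34.2% of all 2202 loci, reads were seen at 7 of the 21 Gm loci on another annotated small RNA (33.3%). Besides Gm49347, Gm47277 and Gm47295, these were Gm47284 (0 and 2 reads), Gm49346 (1 and 1, on Snora81), Gm47296 (1 and 0) and Gm47285 (0 and 1, on n-R5s64). A Mir locus within 10 kb was found for 84 Gm loci (8.23%), beside 19.4% of all loci and 29.1% of the Mir loci. Of these 84 Gm loci 9 had reads. Gm27379, 0.382 kb from Mir544 in the Dlk1-Dio3 region, had 8 and 3 reads. Gm24155, 0.792 kb from Mir137, had 3 and 2. Gm22072, in an intron of Sfmbt2 and 1.26 kb from Mir466m, had 0 and 5. Gm23873, in the non-coding gene A230057D06Rik and 8.04 kb from Mir344h-2, had 2 and 8. In Gm23134, in an intron of Blcap, a stretch of 23 nt is identical to Mir708. Gm23134 had 2 reads in each library and Mir708 had 5976 and 5563. All of these are under the threshold of 10 reads, and they were singled out after their values had been seen.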

How the data were processed

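MicroRNA libraries (RNA under 30 nt) of 14 day female left cortex form 1 group of 2. The authors deposited read counts per microRNA gene in build mm10 with GENCODE M21, per the labels and file headers; how reads were trimmed, aligned and counted is not given in the sources used here. Every file has 3 count columns (no strand and either strand). The first stranded column was used as the RNA strand, because it holds most reads. The other stranded column summed to 190504 and 216955. These sums include 109241 and 153183 reads of Mir loci that are listed again at the Gm loci facing them, so they do not count separate opposite-strand reads. The 4 rows that name no gene stayed out of totals. CPM is per 1e+06 gene-assigned RNA-strand reads. The rule for the members uses symbols only, but Gm loci as a subject, the lists and the thresholds were chosen with earlier results of these data known.

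Detected means at least 10 reads in both libraries. Libraries were compared with an exact binomial test (scipy 1.17.1) on TMM-scaled sizes (edgeR 4.0.16; DESeq2 1.42.0 size factors as an alternative), and p-values were adjusted over 389 loci (threshold 0.05). The test and the search for shared stretches were tested on simulated data. Shared stretches were searched among annotated microRNA transcripts only; folding used RNAfold 2.7.2. Named by rule were the detected Gm loci, those with at least 10 reads in 1 library, those with 5 to 9 reads in the lower library, those opposite a Mir locus, and sequence partners; other names are marked as chosen after their values were seen.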

Additional observations from a re-analysis of the deposited data

How the results depend on the processing

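With a minimum of 50 reads in both libraries, 2 Gm loci were detected in place of 6, Gm23450 and Gm49347, and with a minimum of 5 there were 8. In the column without strand the Gm share was 0.0414%, 54 Gm loci had reads and 6 were detected. With 1 library alone, 35 to 42 Gm loci had reads, 6 to 9 were detected and the share was 0.0377 to 0.0392%. The number of Gm loci that differed between the libraries was 2 under each of the 4 alternatives, and the log2 ratio of Gm23935 ran from -3.09 to -2.91. A shared stretch of 18 nt gave 852 Gm loci in place of 824, and the same orientation only, an alternative chosen after seeing the data, gave 815. An overlap of at least 1 base with a host gave 374 Gm loci in place of 354. Of 49 alternative values 47 kept their direction and their side of the threshold or lay within the limits set for a count or value. The 2 others were the number detected at a minimum of 50 reads and the Gm share without strand. The limits let 9 detected loci in place of 6, and 35 loci with reads in place of 49, count as unchanged. Many of the values are log2 ratios of the same 6 loci and are not independent. No paired analysis was possible because there is 1 group and nothing to pair with it. With 2 libraries, loci of a few reads are limited by depth: 10 reads correspond to 3.65 and 3.12 CPM, and 26 of the 49 Gm loci with reads had at most 3 in a library.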
